A study of Mus musculus with 6 samples.

Results

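The 2-oxoglutarate-dependent dioxygenases are enzymes that use 2-oxoglutarate, an intermediate of the TCA cycle, together with oxygen and ferrous iron to hydroxylate or demethylate proteins, DNA or RNA, and that release succinate. The family members followed here were named by symbol: the TET enzymes, the JmjC oxygenases, the AlkB family with FTO, the prolyl, asparaginyl and lysyl hydroxylases, and the OGFOD proteins. All 41 named genes were found among the 55291 distinct symbols of the table, and all 41 had a mean normalized estimated count of at least 10 over the 6 libraries, the level required for testing, which 13170 genes reached. No member was dropped by this filter, but Kdm4d reached it through the NaCl group alone (means of 33.5 in NaCl and 6.85 with itaconate), so its fall is a description and counts are also given without it.

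The cells were CD4+ T cells from the spleens of wild-type, naive C57BL/6 mice, labelled with the division dye CFSE and then stimulated in culture with anti-CD3 and anti-CD28 antibodies and 200 U of IL-2. For 48 h the medium held 5 mM itaconate, which macrophages produce when activated by diverting a TCA cycle intermediate, or 5 mM NaCl, with 3 libraries in each group. The control columns carry the code NAC, taken here to be the NaCl arm because it is the only other treatment the labels name. Whether replicates were separate mice, cultures or pools is not stated, so the tests set the treatment against a spread among libraries that may be technical.

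The size of 1 read in each library gave estimated totals of 20074299 to 24144999 reads. The T cell marker genes Cd3e, Cd3d, Cd3g, Cd4, Cd28 and Lck summed to 51858 to 53599 in the itaconate libraries and to 41112 to 46692 in the controls. They did not move as a group: in the test given below Cd3e, Cd4, Cd28 and Lck were higher with itaconate, Cd3g was lower and Cd3d did not pass. Among markers of other cells, the 4 B cell genes summed to 146 to 266 and 194 to 256, the 2 CD8 genes to 308 to 365 and 363 to 408, and the 3 NK cell and 3 erythroid genes to at most 3.01 in any library. The 5 myeloid genes summed to 51.4 to 104 with itaconate and to 19.4 to 39.7 in NaCl. Itgam was the highest of them in 5 libraries and Itgax, at 14.1 against 7.03 for Itgam, in NaCl replicate 2, while Lyz2 was at 0 in 4 of the 6 libraries and did not exceed 2.04. The part of other cells in the results was not tested. In bulk RNA, fewer cells with a transcript and less transcript per cell cannot be told apart, and the libraries report transcript levels, not enzyme activity.

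In T cells these enzymes act at several points. The EGLN prolyl hydroxylases mark the alpha subunits of hypoxia-inducible factor (HIF) for destruction while oxygen is present, and some dioxygenase genes are themselves HIF targets, which forms a feedback loop. TET enzymes oxidize 5-methylcytosine in DNA, JmjC enzymes remove methyl groups from histone lysines, and AlkB enzymes remove alkyl or methyl groups from DNA and RNA, so that the family links metabolite levels to chromatin and RNA marks.

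Of the 41 members, 16 were lower and 5 were higher with itaconate, and 20 did not pass the test (limma on log2(value + 1), two-sided, Benjamini-Hochberg adjusted p under 0.05 over all tested genes). Together 51.2% of members passed, where 36.0% of all tested genes did. Without Kdm4d 15 of 40 were lower and 5 higher. Of all tested genes 17.8% were lower and 18.2% higher. The median log2 fold change of the members was −0.14, against −0.00095 over all tested genes. Apart from Kdm4d, 5 members passed with at least a 2-fold fall (Egln3, Egln1, P4ha2, Plod2 and Kdm6b), and 5.60% of all tested genes passed with a fall of that size. No member rose 2-fold, while 4.46% of all tested genes passed with such a rise. For 25 members the ranges of the 3 itaconate and the 3 control libraries did not overlap, which held for 48.4% of all genes.

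**Figure D1:**
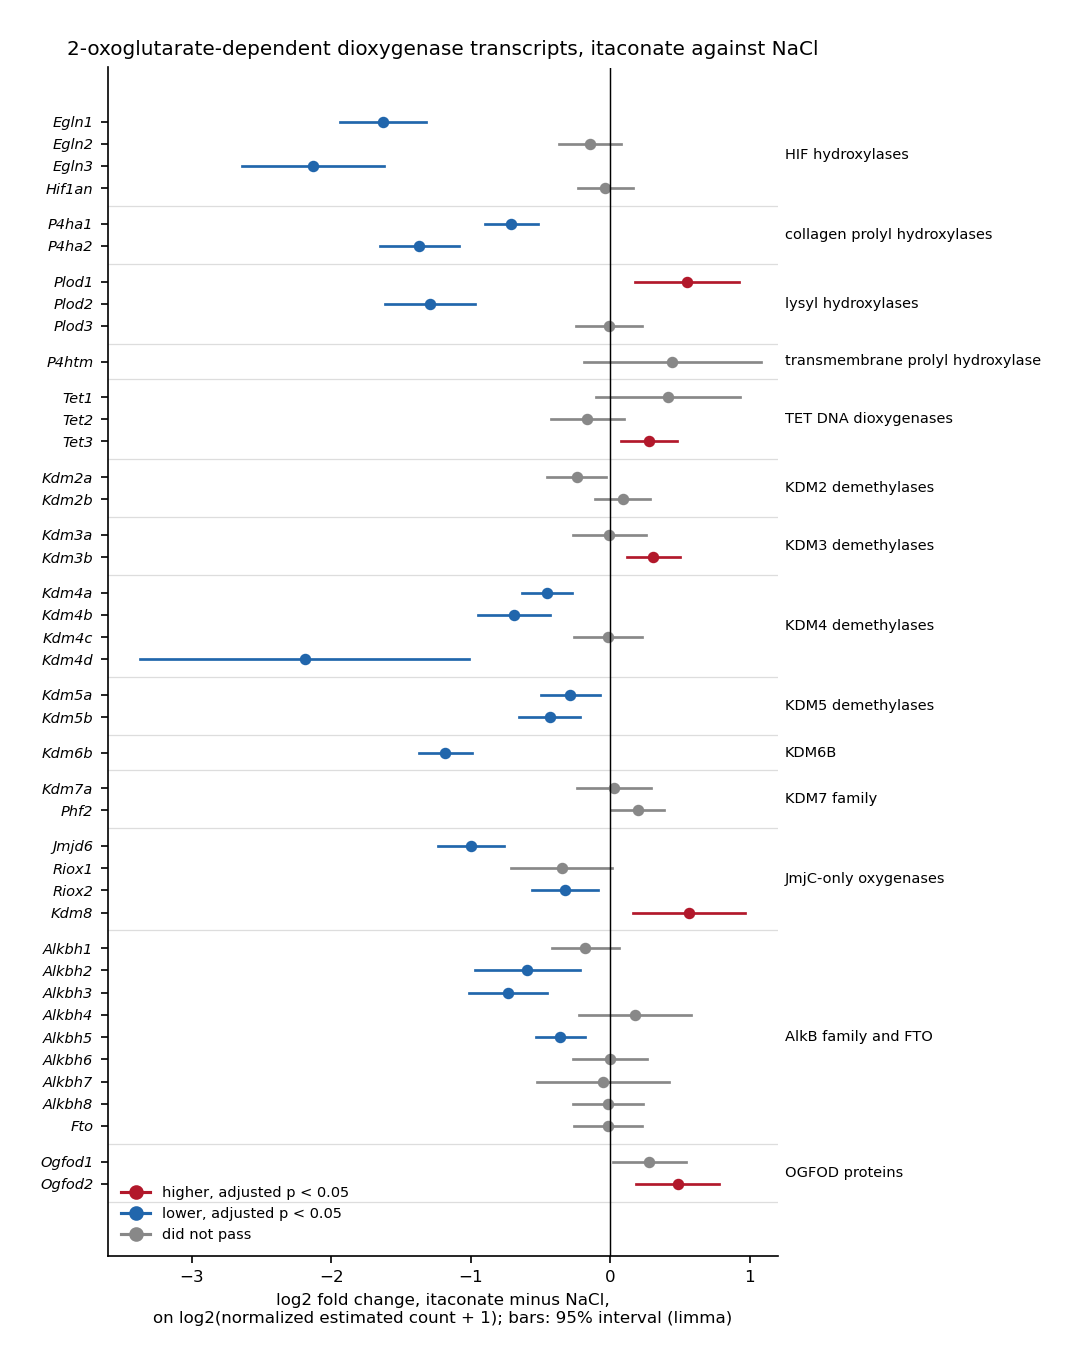
Log2 fold change of each of the 41 members, itaconate minus NaCl (x axis, log2 scale of the normalized estimated count plus 1), with its 95% interval from limma, grouped by subfamily (rows). Blue points were lower and red points higher at an adjusted p under 0.05, and grey points did not pass. Egln3 lies at −2.13 and the weakly expressed Kdm4d at −2.19 with the widest interval, and the highest rise that passed is 0.56 (Kdm8).

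The sequences upstream of 4 of the hydroxylase genes that fell are shown first because these genes fell together and are known as hypoxia-inducible genes. HIF binds a short core written ACGTG or GCGTG. Each window is the 250 bases before the RefSeq transcription start (GRCm38.p6), printed 5′ to 3′ on the strand of the gene, with every ACGTG or GCGTG on either strand in capitals. They are Egln1 at chr8:124949255-124949504 on the minus strand, Egln3 at chr12:54203875-54204124 on the minus strand, P4ha1 at chr10:59323046-59323295 on the plus strand and P4ha2 at chr11:54100674-54100923 on the plus strand.
Egln1: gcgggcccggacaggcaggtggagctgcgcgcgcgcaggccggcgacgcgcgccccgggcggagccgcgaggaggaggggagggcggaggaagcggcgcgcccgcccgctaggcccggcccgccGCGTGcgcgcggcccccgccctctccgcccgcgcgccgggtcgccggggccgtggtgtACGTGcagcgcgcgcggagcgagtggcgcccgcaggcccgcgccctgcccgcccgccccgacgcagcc
Egln3: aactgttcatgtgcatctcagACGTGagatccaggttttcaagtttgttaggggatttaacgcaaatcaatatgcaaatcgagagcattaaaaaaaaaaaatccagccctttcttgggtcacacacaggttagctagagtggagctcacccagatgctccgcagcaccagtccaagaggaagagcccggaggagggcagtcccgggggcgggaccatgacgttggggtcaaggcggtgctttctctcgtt
P4ha1: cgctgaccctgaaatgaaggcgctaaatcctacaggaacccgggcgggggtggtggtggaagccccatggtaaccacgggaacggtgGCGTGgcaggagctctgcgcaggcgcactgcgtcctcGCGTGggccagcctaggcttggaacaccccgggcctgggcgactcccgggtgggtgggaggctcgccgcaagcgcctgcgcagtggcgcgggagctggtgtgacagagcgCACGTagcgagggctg
P4ha2: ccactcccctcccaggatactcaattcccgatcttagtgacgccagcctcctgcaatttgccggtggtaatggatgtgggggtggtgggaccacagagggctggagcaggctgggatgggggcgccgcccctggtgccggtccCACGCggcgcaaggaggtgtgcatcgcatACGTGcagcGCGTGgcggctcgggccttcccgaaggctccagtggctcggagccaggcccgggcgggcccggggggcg
The Egln1 window held 1 ACGTG and 1 GCGTG, the Egln3 window 1 ACGTG only, and the P4ha1 and P4ha2 windows 1 ACGTG and 2 GCGTG each. The 4 windows also differed in base composition, at 86.0% G and C for Egln1, 50.8% for Egln3, 69.6% for P4ha1 and 70.0% for P4ha2.

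These letters are common upstream of expressed genes. Of the 35 members with a RefSeq window, 21 held either motif at 1 or more of their starts. The same held for 61.9% of the 9758 tested genes with a window, and for 41.5% of all 27025 genes with a window. The motif was present for 8 of the 12 members that fell, 2 of the 4 that rose and 11 of the 19 that did not pass and had a window. Plod1, a listed hypoxia-inducible gene that rose, held 1 GCGTG. The 6 members without a window were Kdm2a, Kdm3b, Kdm4b, Kdm5a, Kdm6b and Plod2, so the falls of Plod2, Kdm4b, Kdm5a and Kdm6b could not be set beside the motif. A palindromic CACGTG counts on both strands. A match describes the letters only, and these windows do not cover introns or distant elements.

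The HIF hydroxylases divided into Egln1 and Egln3, which fell, and Egln2 and Hif1an, which did not pass. Egln3 (PHD3), a HIF prolyl hydroxylase strongly induced by HIF, had normalized estimated counts of 2136, 2868 and 5198 in itaconate replicates 1 to 3 and of 11826, 14887 and 15279 in NaCl replicates 1 to 3. The highest itaconate library was below the lowest control by a wide margin, and itaconate replicate 3 was the least reduced. The log2 fold change was −2.13 ± 0.23 (SE, n = 3 per group), a 4.39-fold fall on the scale of the fit (limma adjusted p = 3.11e-05). Without itaconate replicate 3 it was −2.49.

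Egln1 (PHD2), the main HIF prolyl hydroxylase in most cells, had counts of 1495, 1846 and 2357 with itaconate and of 5089, 6282.5 and 5991 in NaCl. The groups did not overlap and itaconate replicate 3 was again the highest of its group. The fall was 3.09-fold (log2 fold change −1.63 ± 0.14 SE, limma adjusted p = 6.50e-06). Egln2 (PHD1), the remaining prolyl hydroxylase of the trio, had counts of 971, 932 and 1054 against 1022, 1116 and 1130. Its itaconate and control values overlapped, and the 95% interval of its log2 fold change ran from −0.37 to 0.077 (adjusted p = 0.294). Hif1an (FIH), which hydroxylates an asparagine of HIF alpha and so lowers its activity, had counts of 1652, 1606 and 1573 against 1577, 1775 and 1604. Its values overlapped too, with an interval of −0.23 to 0.16 around a log2 fold change of −0.035 (adjusted p = 0.798).

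Per kilobase of exon, Egln3 was the most abundant of the 41 transcripts in both groups, at 5258 ± 710 in NaCl and 1277.5 ± 601 with itaconate (SD, n = 3). Egln1 came next in NaCl at 1610 ± 173, then P4ha1 at 1015 ± 77.8 and Alkbh5 at 1011 ± 25.1, a pair that did not differ beyond their spread. With itaconate the second place went to Alkbh5 at 790.2 ± 51.6, with P4ha1 at 620.0 ± 14.6 and Phf2 at 551 ± 40.8, and Egln1 was at 528 ± 121, within its spread of the latter pair. The lowest levels in both groups were those of Kdm4d, Tet1 and P4htm. The exon length counts every base in any annotated exon of a gene, whichever transcripts the cells made. The order of genes and the shares per kilobase given below are therefore approximate.

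The make-up of the HIF hydroxylase transcripts differed between the groups. Egln3 made up 68.7%, 69.8% and 71.3% of the summed level per kilobase in the NaCl libraries and 44.2%, 49.7% and 60.6% in the itaconate libraries. Egln2 went from 4.98% to 5.65% of the sum in NaCl to 11.7% to 19.1% with itaconate, and Hif1an from 3.02% to 3.69% to 7.39% to 13.8%. The ranges of these 3 genes did not overlap, whereas Egln1 held 20.3% to 23.7% in all 6 libraries. The sum itself was 6462 to 8053 in NaCl and 1815 to 3223 with itaconate, so the larger shares of Egln2 and Hif1an go with a smaller total. A permutation test of 3 against 3 libraries cannot give a two-sided p below 0.1, and the shares were not tested.

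**Figure D2:**
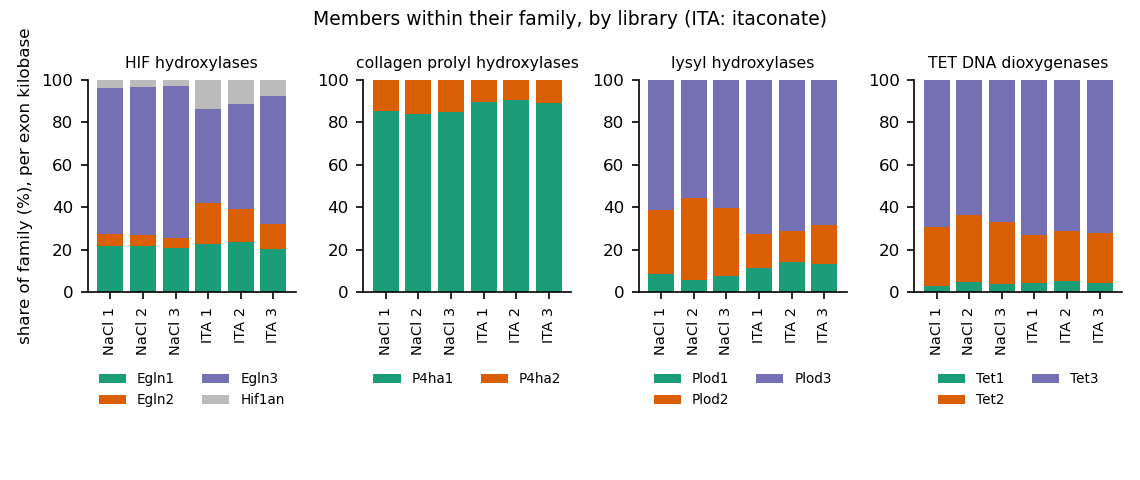
Share of each member in the summed level of its family, per exon kilobase (y axis, percent), in each of the 6 libraries (bars; ITA is itaconate). Egln3 falls from 68.7% to 71.3% in NaCl to 44.2% to 60.6% with itaconate, and Plod2 and P4ha2 also take smaller shares in all 3 itaconate libraries.

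The collagen prolyl hydroxylases, which work in the endoplasmic reticulum on procollagen chains, both fell. P4ha1, a catalytic alpha subunit of the enzyme, had counts of 2519, 2514 and 2620.3 with itaconate and of 3853, 4492 and 4185 in NaCl. All itaconate values were below all control values and lay within a narrow range. The fall was 1.63-fold (log2 fold change −0.71 ± 0.087 SE, limma adjusted p = 6.75e-05). P4ha2, the alternative alpha subunit, had counts of 448, 404 and 472 against 980.05, 1316 and 1143, again without overlap, a 2.58-fold fall (log2 fold change −1.37 ± 0.13 SE, limma adjusted p = 1.14e-05). P4ha2 held 14.4% to 16.2% of the summed level of both subunits in NaCl and 9.58% to 10.6% with itaconate.

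The lysyl hydroxylases, which modify collagen lysines before cross-linking, went in different directions. Plod2, the enzyme for the telopeptide lysines, had counts of 295, 273 and 299 with itaconate and of 597, 861 and 693 in NaCl. The groups were well apart, and the fall was 2.45-fold (log2 fold change −1.29 ± 0.15 SE, limma adjusted p = 4.47e-05). Plod1, which hydroxylates lysines of the collagen helix, rose, with counts of 265, 324 and 269 against 212, 165 and 209 and no overlap (log2 fold change 0.55 ± 0.17 SE, limma adjusted p = 0.0246). Plod1 no longer passed with itaconate replicate 2 left out (adjusted p = 0.111) or NaCl replicate 2 (adjusted p = 0.0977). Plod3, which also carries glycosyltransferase activity, was at 1048 ± 112 and 1051 ± 34.9 (SD, n = 3), with an interval for the log2 fold change of −0.24 to 0.23. P4htm, a transmembrane prolyl hydroxylase of the endoplasmic reticulum that can act on HIF alpha, was low and variable, with counts of 90.7, 76.3 and 114 against 89.7, 47.2 and 72.6, and did not pass (log2 fold change 0.45, interval −0.19 to 1.08, adjusted p = 0.260).

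**Figure D3:**
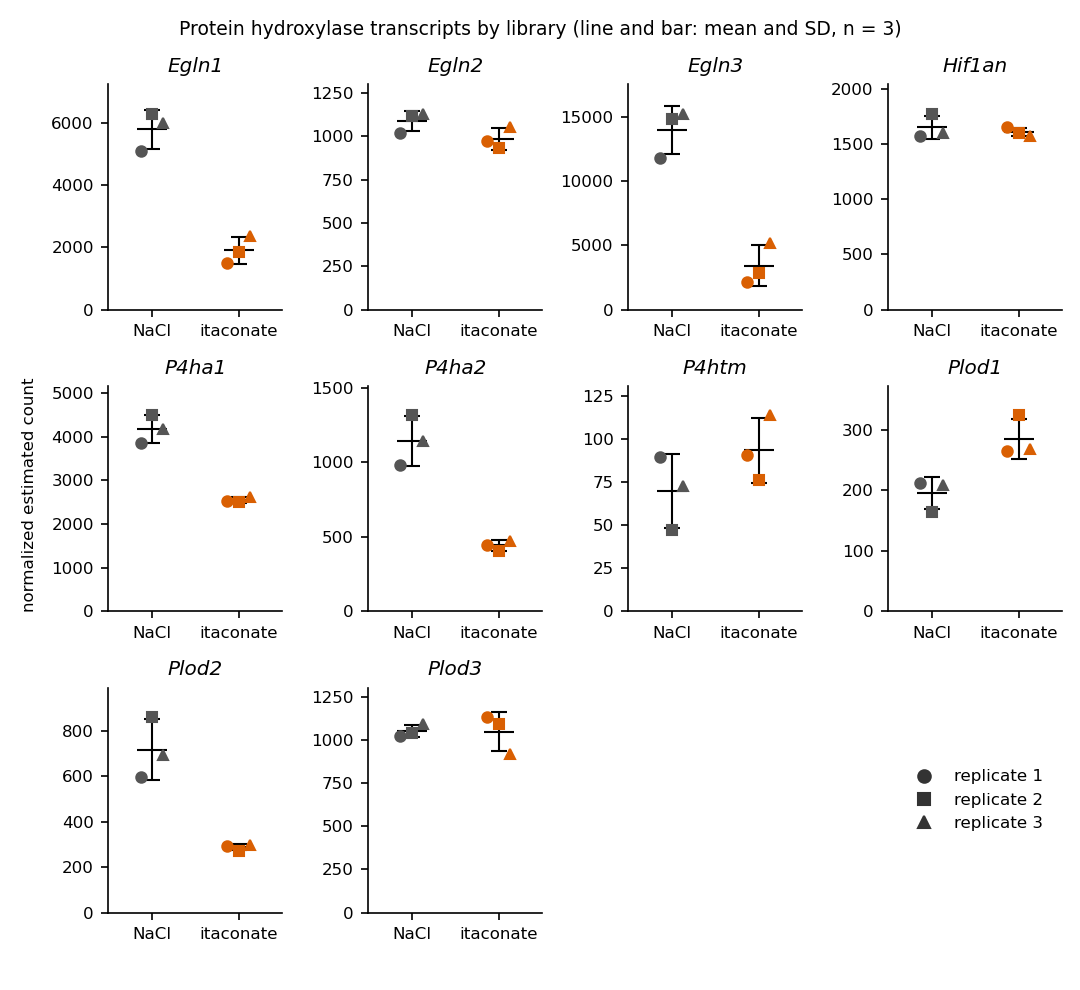
Normalized estimated counts (y axes, linear from 0) of the 10 protein hydroxylase genes of the HIF, collagen prolyl, lysyl and transmembrane groups in each NaCl (grey) and itaconate (orange) library, with mean and SD (n = 3) and 1 symbol per replicate number. Egln1, Egln3, P4ha1, P4ha2 and Plod2 show separated groups with itaconate lower, Plod1 shows itaconate higher, and the others overlap.

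Of the 41 members, 9 were listed here as known hypoxia-inducible genes (Egln1, Egln3, P4ha1, P4ha2, Plod1, Plod2, Kdm3a, Kdm4b and Kdm4c). Of these, 6 fell, Plod1 rose, and Kdm3a and Kdm4c did not pass, with a median log2 fold change of −0.71. Among the other 32 members 10, Kdm4d included, fell and 4 rose, with a median of −0.044. The share that passed was 77.8% of the 9 and 43.8% of the 32, beside 36.0% of all tested genes. The difference between these lists was not tested. The 9 were chosen with earlier results of these data known, and the other 32 may include further hypoxia-inducible genes. Set against the mean of the controls, the median log2 difference of these 9 genes was −0.85, −0.73 and −0.67 in itaconate replicates 1, 2 and 3, and −0.19, 0.12 and 0.006 in the controls. Itaconate replicate 3 was the highest of its group for 6 of these 9 genes and for 12 of the 16 members that fell, and for 4816 of all 13170 tested genes.

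Genes of the HIF system itself changed as well. Hif1a, the oxygen-regulated subunit whose protein the EGLN enzymes hydroxylate, was at 20693 ± 4694 with itaconate and 32223 ± 2496 in NaCl (SD, n = 3), a fall (log2 fold change −0.66 ± 0.13 SE, limma adjusted p = 0.00234). Hif3a, a further alpha subunit gene, fell by 1.502 ± 0.17 on the log2 scale (adjusted p = 3.78e-05). Vhl, the ubiquitin ligase subunit that binds hydroxylated HIF alpha, fell by 0.38 ± 0.14 (adjusted p = 0.0449), with overlapping groups, and did not pass without any 1 of itaconate replicates 2 and 3 or NaCl replicates 1 and 2 (adjusted p = 0.0981 to 0.168). Vhl also did not pass in limma with no filter (adjusted p = 0.0619), total-sum scaling (0.0639), voom weights (0.0608) or no intensity trend (0.111). Arnt, the constant partner of the alpha subunits, rose by 0.32 ± 0.10 (adjusted p = 0.0266) but did not pass without itaconate replicate 1 or 2 or NaCl replicate 2 or 3 (adjusted p = 0.0567 to 0.127). Without the intensity trend in limma Arnt did not pass either (adjusted p = 0.0873). Epas1, the gene for HIF-2 alpha, was at 0.062 ± 0.16 and did not pass. Arnt2 was below the filter.

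The TET enzymes, which start DNA demethylation by oxidizing 5-methylcytosine, included 1 gene that rose and 2 that did not pass. Tet3, at 196 ± 13.2 per kilobase in NaCl the most abundant of the 3, had counts of 4102, 4248 and 3580.0 with itaconate and of 3355, 3449 and 3028 in NaCl. The itaconate values were all above the controls, although the lowest of them was close to the highest control (log2 fold change 0.28 ± 0.094 SE, limma adjusted p = 0.0352). Tet3 did not pass in 6 of 17 alternatives, among them those leaving out itaconate replicate 1 (adjusted p = 0.0935), itaconate replicate 2 (0.150), NaCl replicate 1 (0.0566) and NaCl replicate 3 (0.130).

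Tet2, an often mutated tumour suppressor gene of blood cells, had counts of 1297, 1427.5 and 1190 with itaconate and of 1348, 1738 and 1323 in NaCl. The groups overlapped, and the interval of the log2 fold change was −0.43 to 0.099 (adjusted p = 0.317). Tet1, the lowest of the trio, had counts of 219, 299.7 and 197 against 133, 244 and 168, which overlapped (log2 fold change 0.41, interval −0.10 to 0.93, adjusted p = 0.195). Tet2 made up 27.6% to 31.7% of the TET level per kilobase in NaCl and 22.8% to 23.7% with itaconate, and Tet3 63.5% to 69.4% and 71.0% to 73.0%.

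Of the 13 JmjC histone demethylases among the members, 6 fell, 1 rose and 6 did not pass, with a median log2 fold change of −0.24 (5 of 12 fell without Kdm4d, with a median of −0.13). With 4 further tested JmjC demethylases (Kdm5c, Kdm6a, Phf8 and Jmjd1c), added after the results were seen, 7 of 17 fell, 1 rose and 9 did not pass, with a median of −0.053. The share that passed was 53.8% of the 13, 50% of the 12 and 47.1% of the 17, beside 36.0% of all tested genes. The clearest fall was that of Kdm6b (JMJD3), which removes methyl groups from H3K27 and is induced in activated lymphocytes and macrophages. Its counts were 2217, 2413 and 2604 with itaconate and 5274, 5580.3 and 5524 in NaCl. The groups were far apart with little spread, a 2.27-fold fall (log2 fold change −1.18 ± 0.087 SE), and it had the smallest adjusted p of the 41 members (limma, 2.27e-06). Kdm6a, its paralog, did not pass (log2 fold change 0.21, interval −0.019 to 0.44, adjusted p = 0.141).

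The KDM4 enzymes act on trimethylated H3K9, and some of them also on H3K36. Of their genes, Kdm4a and Kdm4b fell, Kdm4c did not pass, and Kdm4d was too low in 1 group to count. Kdm4b had counts of 1284, 1425 and 1616 with itaconate and of 1988, 2447 and 2554 in NaCl (log2 fold change −0.69 ± 0.12 SE, limma adjusted p = 7.22e-04). Kdm4a had counts of 2455, 2612 and 2730.2 against 3579, 3417.5 and 3674 (log2 fold change −0.45 ± 0.084 SE, limma adjusted p = 0.00125). Neither gene's groups overlapped. Kdm4d, a relative known mainly from testis, was near the bottom of the measured range, with counts of 4.68, 10.7 and 5.13 against 37.7, 38.2 and 24.5. Its log2 fold change of −2.19 ± 0.54 SE is therefore imprecise, and it was −1.37 with a pseudocount of 10 and −2.35 with 0.1. Kdm4c was at 993 ± 13.1 and 1011 ± 132 (SD, n = 3), with an interval of −0.26 to 0.23.

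The KDM5 enzymes remove methyl groups from H3K4, and both of their genes among the members, Kdm5a and Kdm5b, were lower. Kdm5b had counts of 2992, 3246 and 3193 with itaconate and of 3859, 4950.5 and 4001 in NaCl, without overlap (log2 fold change −0.43 ± 0.10 SE, limma adjusted p = 0.00533). Kdm5a had counts of 2630, 3146 and 2714 against 3323, 3770.1 and 3241, just without overlap (log2 fold change −0.28 ± 0.098 SE, limma adjusted p = 0.0379). Kdm5a did not pass in 8 of 17 alternatives, including those leaving out itaconate replicate 1 (adjusted p = 0.121), itaconate replicate 3 (0.0793), NaCl replicate 1 (0.0561) or NaCl replicate 2 (0.153).

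Of the KDM2, KDM3 and KDM7 genes, only Kdm3b passed. Kdm3b, an H3K9 demethylase, rose, with counts of 3358, 3407 and 3415 against 2490.4, 2883 and 2857 (log2 fold change 0.31 ± 0.088 SE, limma adjusted p = 0.0149). Kdm3b missed the threshold without the intensity trend (adjusted p = 0.0592), with itaconate replicate 2 left out (adjusted p = 0.0553) or NaCl replicate 1 (0.0631). Its paralog Kdm3a had overlapping groups, at 2385 ± 278 and 2401 ± 353 (SD, n = 3), with an interval for the log2 fold change of −0.27 to 0.25. Kdm3b took 43.2% to 48.6% of the level of both genes per kilobase with itaconate and 37.7% to 41.7% in NaCl.

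Kdm2a, a CpG-binding H3K36 demethylase, was below the controls in all itaconate libraries but did not pass (log2 fold change −0.24, interval −0.46 to −0.027 before adjustment, adjusted p = 0.0747). Phf2, an H3K9 demethylase, was above them in all and did not pass either (0.20, interval 0.0036 to 0.39, adjusted p = 0.104). Kdm2b, which ties a variant Polycomb complex to CpG islands, and Kdm7a, which acts on H3K9 and H3K27, had overlapping groups, with log2 fold changes of 0.088 (interval −0.11 to 0.28) and 0.025 (interval −0.24 to 0.29).

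Among the JmjC enzymes that mainly hydroxylate proteins, Jmjd6, a lysyl hydroxylase of splicing factors, fell by close to 2-fold. Its counts were 1100, 1280 and 1341 with itaconate and 2216, 2685 and 2527 in NaCl, with a wide gap between the groups (log2 fold change −0.997 ± 0.11 SE, limma adjusted p = 2.84e-05). Riox2 (MINA), a histidyl hydroxylase of a ribosomal protein, had counts of 1164, 1052 and 998 against 1461, 1194 and 1378, an only just separated pair of groups (log2 fold change −0.32 ± 0.11 SE, limma adjusted p = 0.0350). Riox2 missed the threshold in 7 of 17 alternatives: with total-sum scaling (adjusted p = 0.0531), voom weights (0.0501) or no intensity trend (0.0910), and when itaconate replicate 2 was left out (adjusted p = 0.102), and likewise for itaconate replicate 3 (0.0854), NaCl replicate 1 (0.126) or NaCl replicate 3 (0.101).

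Kdm8 (JMJD5), an arginyl hydroxylase, rose, with counts of 216, 195.5 and 167 against 128.5, 135 and 125 and no overlap (log2 fold change 0.56 ± 0.19 SE, limma adjusted p = 0.0318). Kdm8 missed the threshold when any library other than itaconate replicate 3 was left out (adjusted p = 0.0597 to 0.113), or with no filter (0.0599). Riox1 (NO66), the second histidyl hydroxylase, was at 491 ± 108.5 and 622 ± 97.6 (SD, n = 3), with overlapping groups (log2 fold change −0.35, interval −0.71 to 0.016, adjusted p = 0.126). Without itaconate replicate 3 Riox1 passed as lower (−0.52, adjusted p = 0.0168).

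**Figure D4:**
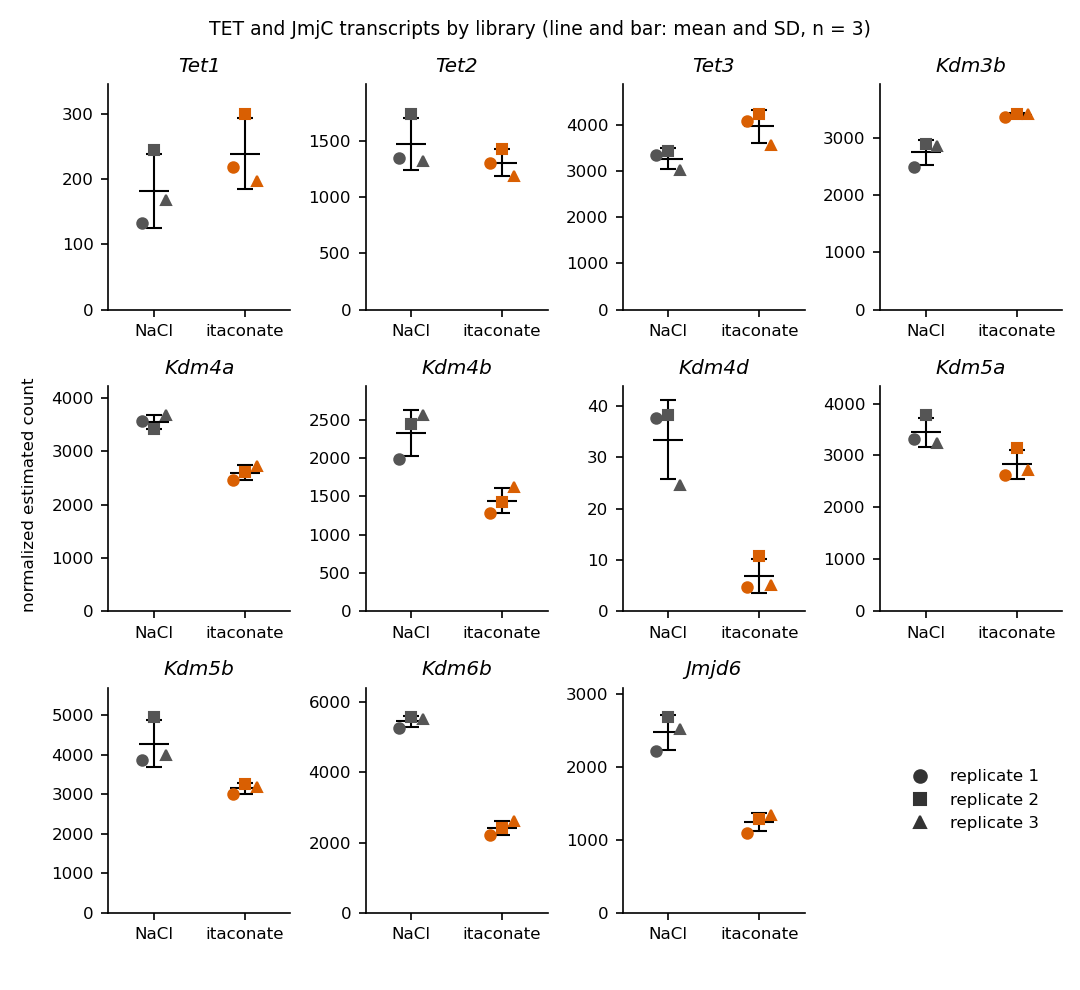
Normalized estimated counts (y axes, linear from 0) of the TET genes and of the JmjC genes Kdm3b, Kdm4a, Kdm4b, Kdm4d, Kdm5a, Kdm5b, Kdm6b and Jmjd6 in each NaCl (grey) and itaconate (orange) library, with mean and SD (n = 3). For Kdm6b the nearest values of the groups are 2604 and 5274 and for Jmjd6 1341 and 2216, and Tet1 and Tet2 overlap.

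In the AlkB family with FTO, 3 of 9 genes fell, 0 rose at an adjusted p under 0.05 in limma, and 6 did not pass. The share that passed, 33.3%, was near the 36.0% of all tested genes. Alkbh3, which repairs alkylated single-stranded DNA and RNA, had counts of 299, 288 and 315 with itaconate and of 485, 509 and 506 in NaCl. The groups were far apart relative to their spread (log2 fold change −0.73 ± 0.13 SE, limma adjusted p = 8.41e-04). Alkbh5, an m6A demethylase of messenger RNA and the most abundant of the AlkB genes per kilobase, had counts of 4421, 4733 and 5038.5 against 6083, 6182 and 5887, without overlap (log2 fold change −0.36 ± 0.082 SE, limma adjusted p = 0.00471).

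Alkbh2, the double-stranded DNA counterpart of Alkbh3, had counts of 179, 205 and 251 against 356, 285 and 313 (log2 fold change −0.59 ± 0.17 SE, limma adjusted p = 0.0181). The groups did not overlap, but Alkbh2 did not pass without itaconate replicate 1 (adjusted p = 0.0635), itaconate replicate 2 (0.0567), NaCl replicate 1 (0.0721) or NaCl replicate 3 (0.0504). Fto, the other m6A demethylase, had overlapping groups at 1358 ± 107 and 1375 ± 164 (SD, n = 3), with an interval for the log2 fold change of −0.26 to 0.23.

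The tRNA enzyme genes Alkbh1 and Alkbh8 were at −0.18 (interval −0.42 to 0.060) and −0.017 (interval −0.27 to 0.23) on the log2 scale. Alkbh4, Alkbh6 and the mitochondrial Alkbh7 had log2 fold changes of 0.18, −0.00040 and −0.053, and the interval was widest for Alkbh7, from −0.53 to 0.42. None of these 5 genes passed. Of the OGFOD genes, Ogfod2 rose, with counts of 557, 689.6 and 607 against 388, 453 and 486 and no overlap (log2 fold change 0.48 ± 0.14 SE, limma adjusted p = 0.0147). Ogfod2 missed the threshold with itaconate replicate 2 left out (adjusted p = 0.0779) or NaCl replicate 1 (0.0594). Ogfod1, a prolyl hydroxylase of a ribosomal protein, lay above the controls in all itaconate libraries (703, 702 and 691 against 652, 518 and 565) but did not pass (log2 fold change 0.28, adjusted p = 0.0885), except without NaCl replicate 1 (adjusted p = 0.0472).

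In 4 members at least 20% of exon bases lay under exons of a gene on the opposite strand: Riox1 (31.9%, Gm26571), Alkbh2 (29.5%, Usp30), Kdm3b (24.6%, Gm26538) and Riox2 (22.4%, Crybg3). The strand setting of the counting is not given in the sources used here, so reads of such pairs may be shared. Usp30 was at 694 and 712 and Crybg3 at 143 and 145 in itaconate and NaCl, with log2 fold changes of −0.036 and −0.034, and the predicted genes Gm26538 and Gm26571 were below the filter.

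Genes around the family were taken from further lists. Of 15 tested genes among 22 other 2-oxoglutarate oxygenases, 4 fell and 3 rose, or 46.7% beside the 36.0% of all tested genes, with a median log2 fold change of 0.040. Without itaconate replicate 2 the counts were 2 and 1, without NaCl replicate 2 2 genes fell, and without NaCl replicate 3 1 rose. Phyhd1, a phytanoyl-CoA hydroxylase-like gene, fell by 1.73 ± 0.31, Jmjd4 by 0.65 ± 0.16 and the H3K4 demethylase gene Kdm5c by 0.34 ± 0.090 on the log2 scale, while the collagen prolyl 3-hydroxylase gene P3h1 rose by 0.97 ± 0.19 (adjusted p = 0.00107, 0.00750, 0.0104 and 0.00190). Kdm5c did not pass with itaconate replicate 2 left out (adjusted p = 0.0650) or NaCl replicate 2 (0.0516), or in limma without the intensity trend (0.0595). Phyh also fell, and Hspbap1 and Ogfod3 also rose.

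Histone lysine methyltransferases add methyl groups to histone lysines. Of 24 such genes 14 rose and 1 fell, where 18.2% of all tested genes rose, with a median log2 fold change of 0.34. The count that rose was 6 without the intensity trend, 8 without itaconate replicate 2 or NaCl replicate 3, and 9 without NaCl replicate 2. The 4 with the smallest p were Suv39h1 and Ezh1, up by 0.72 ± 0.095 and 0.69 ± 0.097, Kmt5c, up by 0.59 ± 0.13, and Kmt5b, down by 0.61 ± 0.11 (limma adjusted p = 1.16e-04, 1.88e-04, 0.00337 and 0.00112). Both flavin-dependent demethylases, which do not use 2-oxoglutarate, rose: Kdm1a (LSD1) by 0.32 ± 0.085 and Kdm1b by 0.64 ± 0.11 on the log2 scale (adjusted p = 0.0108 and 9.59e-04). The difference between these lists and the JmjC demethylases was not tested.

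Of 12 genes that write or read m6A, the mark that Alkbh5 and Fto erase, 3 rose and 2 fell, or 41.7% beside the 36.0% of all tested genes, with a median of −0.11. Rbm15 was up by 0.93 ± 0.098, Virma by 0.29 ± 0.089 and the reader gene Ythdc2 by 0.44 ± 0.12, and Rbm15b was at −0.55 ± 0.12 and Wtap at −0.31 ± 0.085 on the log2 scale (limma adjusted p from 2.41e-05 to 0.0238). Wtap did not pass without itaconate replicate 2 (adjusted p = 0.0561), Ythdc2 without NaCl replicate 3 (0.0658), or Virma without itaconate replicate 1 or 2 or NaCl replicate 1 or 3 (0.0528 to 0.0898). Virma also missed the threshold in limma without the intensity trend (adjusted p = 0.0719).

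Genes of 2-oxoglutarate supply and use included 4 of 23 that rose, 2 that fell and 17 that did not pass, where 64.0% of all tested genes did not pass, with a median log2 fold change of 0.11. Idh1, the cytosolic enzyme that makes 2-oxoglutarate from isocitrate, was at 333 ± 31.2 with itaconate and 122 ± 34.5 in NaCl (SD, n = 3), a rise (log2 fold change 1.48 ± 0.22 SE, limma adjusted p = 2.33e-04), and its mitochondrial relative Idh2 rose by 0.57 ± 0.10 (adjusted p = 9.14e-04). Got1, the cytosolic aspartate aminotransferase, fell by 1.09 ± 0.11 (adjusted p = 1.32e-05). Sdhb also rose and Gpt2 also fell.

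**Figure D5:**
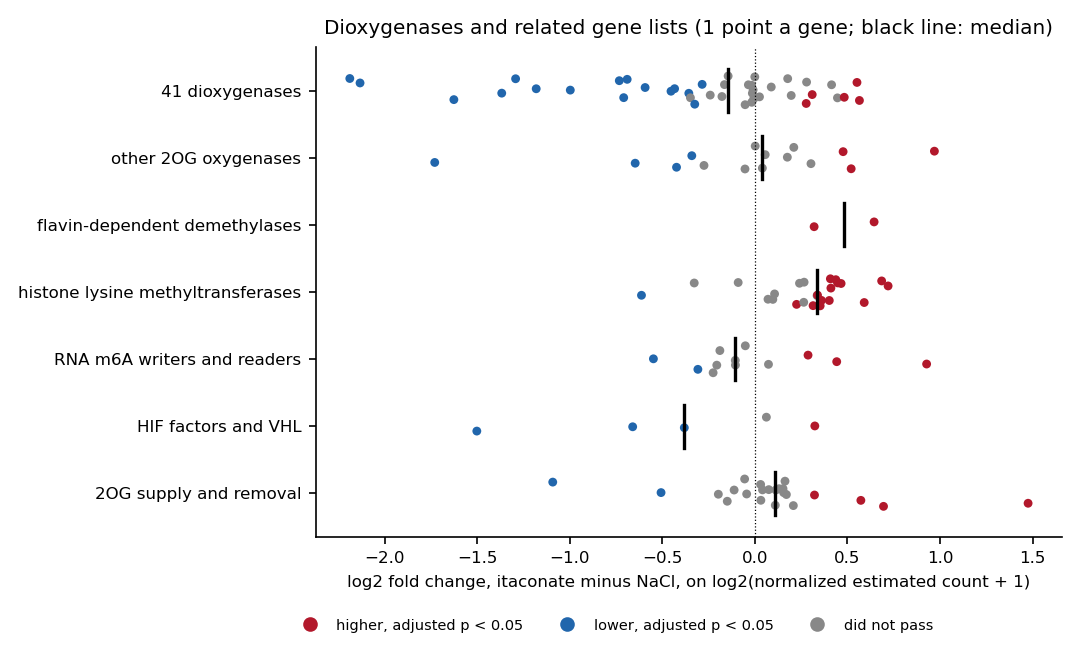
Log2 fold change, itaconate minus NaCl (x axis, on normalized estimated count plus 1), of each tested gene in the 41 dioxygenases and 6 related lists (rows), with the list median as a black line. The dioxygenases have a median of −0.14, with Egln3 at −2.13, and the histone lysine methyltransferases a median of 0.34.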

How the data were processed

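RNA was sequenced from 6 libraries, and the authors deposited 1 table of expression signal, here normalized estimated counts by gene symbol. The genome was mm10, aligned and counted with STAR 2.7.0f and RSEM 1.3.0, per the submitters' processing notes. The sources used here do not give the annotation, size factors or strand setting. In each library the values stepped by hundredths of what 1 read is worth, which gave the estimated totals. For repeated symbols (110 extra entries) the entry with the highest mean was kept. Replicates correlated across genes (not independent points) at a Pearson r of 0.973 to 0.979 on the log2 scale and differed by 12.8 to 25.5 times the sampling noise (chi-square over degrees of freedom), so none was counted as a duplicate.

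Genes with a mean of at least 10 were tested with limma 3.58.1 in R 4.3.3 on log2(value + 1), with an intensity trend and no covariate, and p-values were adjusted over all tested genes. Fold changes are on that scale and understate changes of low genes. Intervals are 95% and unadjusted. The authors' normalization makes every level relative within its library. The members and lists were chosen with earlier results of these data known. All members are named, with values in every library for those that passed without overlap and for the TET and HIF hydroxylase genes. Of each further list up to 4 genes with the smallest p are named, and beyond that rule Kdm6a, Phf8, Jmjd1c, Arnt2, Epas1, Virma, Phyh, Hspbap1, Ogfod3, Sdhb, Gpt2 and the values of some further members were added after the results were seen. Gene positions, exon overlaps and exon lengths are from GENCODE release M21 (GRCm38), and upstream sequences from RefSeq. The fit was tested on simulated data. Alternatives were other pseudocounts, filters, scalings, variance models and voom weights, the replicate number as a block, and leaving out each library.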

Additional observations from a re-analysis of the deposited data

How the results depend on the processing

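Of 17 alternatives tried, 13 of the 21 members that passed (Kdm4a, Kdm4b, Kdm4d, Kdm5b, Kdm6b, Jmjd6, Alkbh3, Alkbh5, Egln1, Egln3, P4ha1, P4ha2 and Plod2, all lower) passed in the same direction in every one that tested them. Kdm4d is among these 13, but it reached the filter through the NaCl group alone, so its passing is a description. The count of lower members, Kdm4d included where tested, ran from 13 to 18. The count of higher members was 3 with no filter and 3 without the intensity trend, against 5, and 0 to 5 with 1 library left out. It was 0 without itaconate replicate 2, where limma gave 4 at an unadjusted p under 0.05, 2 without NaCl replicate 1, 5 without itaconate replicate 3, and 3 without each of the others. In the further lists the count of higher genes was 27, against 16 without the trend and 15 to 30 with 1 library left out (15 without NaCl replicate 3, 17 without itaconate replicate 2). Total-sum scaling moved the median log2 fold change of all genes by 0.027 and voom weights by 0.026, and the other alternatives by less.

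Changes of sign were limited to 10 members that did not pass. With total-sum scaling Kdm3a was at 0.021, Kdm4c at 0.0087, Alkbh6 at 0.026, Alkbh8 at 0.0095, Fto at 0.013 and Plod3 at 0.017, and with voom weights these were 0.020, 0.0082, 0.027, 0.010, 0.013 and 0.017. With quantile normalization Kdm7a was at −0.028, Alkbh6 at 0.0093 and Alkbh7 at 0.00026. With 1 library left out, log2 fold changes ran from −0.10 to 0.11 for Kdm3a, −0.11 to 0.079 for Kdm4c, −0.11 to 0.11 for Kdm7a, −0.016 to 0.28 for Alkbh4, −0.054 to 0.057 for Alkbh6, −0.23 to 0.14 for Alkbh7, −0.062 to 0.030 for Alkbh8, −0.11 to 0.060 for Fto, −0.068 to 0.018 for Hif1an and −0.068 to 0.081 for Plod3. The cause was not tested.

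Same-numbered libraries had correlations of their deviations of 0.15, 0.038 and 0.13 (replicates 1, 2 and 3), and each library correlated best with its own number. The other pairs ran from −0.14 to 0.022. Whether same-numbered libraries shared a mouse, culture or batch is not stated and was not tested. The replicate block raised the share of all tested genes that passed from 36.0% to 42.8%. With the replicate block 6 members were higher and 18 lower, with Phf2 (adjusted p = 0.0457), Kdm2a (0.0251) and Riox1 (0.0313) passing in addition. A mean filter of 100 left Kdm4d and P4htm untested, and depth limits Kdm4d most.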
